A study of Oryctolagus cuniculus with 24 samples.

Results

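The genes described here are transcription factors of mesenchymal transition in primary keratocytes of the rabbit cornea, the quiescent cells that maintain its stroma. Their rows were taken from the table by gene symbol: SNAI1, SNAI2, TWIST1, TWIST2, ZEB1, ZEB2, PRRX1, PRRX2 and TCF21. Of these 9 symbols, 8 have a row among the 23428 rows of the gene count table, and all 8 were among the 13308 genes with enough counts to be tested. TWIST1 was not analysed here. RNA was sequenced from cells at passage 1, grown for 6 days on glass coated with collagen, in 24 libraries with 8 per condition. The serum-free condition, which the labels call keratocyte, kept the defined serum-free medium throughout. The TGF-β1 condition, called myofibroblast, had the same medium plus TGF-β1 at 5 ng/mL from day 1, and the FBS condition, called fibroblast, had DMEM with 10% fetal bovine serum from day 3. Besides serum, the FBS arm thus has another base medium and a later start. Whether replicates are separate cultures or animals is not said in the labels, and p-values here measure only how these libraries spread, which may be technical.

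Epithelial-mesenchymal transition is the process in which cells give up tight contacts with their neighbours and become motile and fibroblast-like. The zinc finger proteins SNAI1 (Snail) and SNAI2 (Slug) and the zinc finger and homeodomain proteins ZEB1 and ZEB2 bind short E-box elements and repress epithelial genes such as CDH1, the gene of E-cadherin. TWIST2 and TCF21 are basic helix-loop-helix proteins, which bind E-boxes as dimers with E proteins, and PRRX1 and PRRX2 are paired-type homeodomain proteins of embryonic mesenchyme. Keratocytes descend from the neural crest and are mesenchymal already, so in these cells the same factors are studied for their part in activation to fibroblasts and myofibroblasts.

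Serum-free libraries held 17151397 to 21540864 counts each, TGF-β1 libraries 15410285 to 20911192 and FBS libraries 15659561 to 22528261. KERA, the keratocyte proteoglycan keratocan, was present in every library and averaged 8807 CPM (counts scaled to library size, here with TMM factors) in serum-free medium, 293 under TGF-β1 and 237 under FBS. ACTA2, the gene of α-smooth muscle actin, averaged 2.92, 231 and 479 CPM in that order (log2 difference -1.05 for TGF-β1 against FBS, edgeR adjusted p = 0.0127). Myofibroblast markers were thus raised in the condition labelled fibroblast too, and between the treatments they went both ways, with ACTG2 at 0.80 (edgeR adjusted p = 0.0144), MYH11 at -0.50 (edgeR adjusted p = 0.00248), and TAGLN (0.67) and TPM2 (-0.03) not passing. The 11 keratocyte markers summed to 63470 to 100100 CPM in serum-free medium, 16250 to 26530 under TGF-β1 and 3026 to 5446 under FBS, and 5 myofibroblast markers to 16.1 to 42.6, 553 to 1376 and 608 to 1300 CPM. Of the 11 keratocyte markers, 9 fell under TGF-β1, where 64.3% of all genes tested were called. AQP1 rose there, from 584 to 1568 CPM (log2 fold change 1.43, edgeR adjusted p = 1.65e-07), and ITIH5 did not pass (-0.54). Under FBS all 11 fell, where 80.0% of all genes tested were called. Library names carry a number from 5 to 12 in every condition, and those numbered 5 to 8 (replicates 1 to 4) stand apart from those numbered 9 to 12 (replicates 5 to 8), with 43.7% of all genes tested called between the sets in serum-free medium, 28% under TGF-β1 and 48.4% under FBS (edgeR adjusted p under 0.05). FBS replicates 5 and 6 stand apart within their own set. The labels do not say what separates the sets, which are not groups of the study, and values within each set are given below because several of these genes differ between them. RNA was measured in bulk, so fewer cells of a type and less RNA per cell cannot be told apart.

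SNAI1 and PRRX2 were higher, and ZEB1 lower, in both treated conditions than in serum-free medium, while ZEB2 and PRRX1 passed in no comparison over the 24 libraries. SNAI2 was higher under TGF-β1 and TWIST2 under FBS. TCF21, which had counts almost only under FBS and passed the filter on low counts through that group alone, is left out of the counts that follow and described by its counts further on. Under TGF-β1 against serum-free medium 3 of the other 7 genes rose, 1 fell and 3 did not pass, where 64.3% of all genes tested were called, 31.2% higher and 33.1% lower. The libraries of 3 genes did not overlap, all higher (33.9% of all genes did not overlap). Under FBS against serum-free medium 3 rose, 1 fell and 3 did not pass, where 80.0% of all genes were called, 39.5% higher and 40.5% lower. Here 3 genes did not overlap, 2 higher and 1 lower (52.9% of all genes). TGF-β1 against FBS gave 2 higher and 1 lower of the 7, against 73.3% of all genes, 36.9% higher and 36.4% lower. None of the 7 was without overlap there (46.2% of all genes were, 22.4% higher and 23.8% lower). These counts are read beside those shares only, with no test of the group. The median log2 fold change of the 7 was 0.33, 0.26 and 0.02 in the 3 comparisons, beside medians of -0.03, -0.04 and 0.01 over all genes. The comparisons with serum-free medium share those 8 control libraries.

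**Figure D1:**
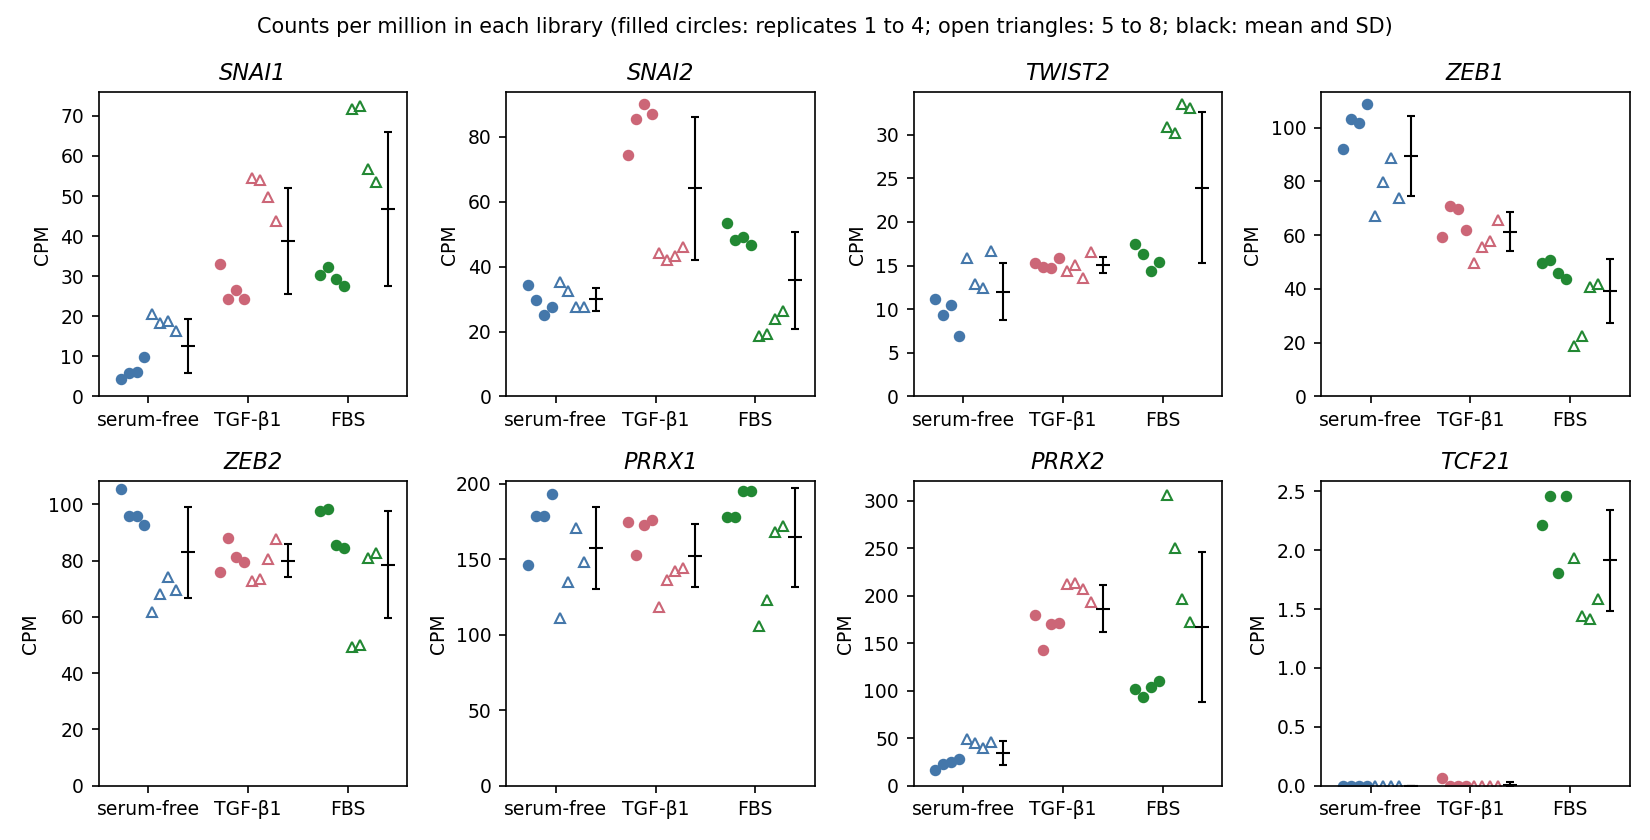
Counts scaled to library size (CPM, y axis, from 0) of the 8 genes in the 24 libraries by culture condition (x axis); filled circles are replicates 1 to 4, open triangles replicates 5 to 8, and black bars the mean and SD of 8 libraries. PRRX2 rises from at most 49.2 CPM in serum-free medium to at least 93.2 CPM in both treatments, ZEB1 steps down from serum-free medium to TGF-β1 to FBS, and TCF21 has counts in all 8 FBS libraries and in 1 other.

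On a scale per gene length (FPKM, which corrects for library size and listed gene length, from the deposited table), PRRX1 led in serum-free medium at 80.8 ± 14.2 FPKM (mean ± SD, n = 8 here and below). PRRX2 (45.2 ± 16.5 FPKM), ZEB1 (30.4 ± 5.27), TWIST2 (18.1 ± 4.80), ZEB2 (15.4 ± 3.15), SNAI2 (14.5 ± 1.78) and SNAI1 (8.88 ± 4.70) followed, and the library ranges of every pair of neighbours in this order overlapped except that SNAI1 stood above TCF21, which is listed at 0. Under TGF-β1 the order began with PRRX2 at 250 ± 34.6 FPKM, and PRRX1 (78.1 ± 10.5), SNAI2 (31.0 ± 10.5), SNAI1 (27.8 ± 9.61), TWIST2 (22.8 ± 1.43), ZEB1 (20.9 ± 2.38) and ZEB2 (14.9 ± 1.06) came after it. There PRRX2 lay above PRRX1, and PRRX1 above SNAI2, without overlap, while SNAI2, SNAI1, TWIST2 and ZEB1 overlapped as neighbours. Under FBS PRRX2 (222 ± 104 FPKM) and PRRX1 (84.2 ± 17.2) again led without overlap. TWIST2 (36.1 ± 13.0), SNAI1 (33.2 ± 13.4), SNAI2 (17.3 ± 7.25), ZEB2 (14.6 ± 3.60) and ZEB1 (13.3 ± 4.15) followed with overlapping neighbours, and TCF21 came last at 1.66 ± 0.374 FPKM. ZEB1 was thus the third gene of the order in serum-free medium and the seventh under FBS. The order depends on the listed lengths, which are short for TWIST2 (661 bases) and for PRRX2 (747 bases, a multiple of 3, as of a coding sequence alone).

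SNAI1, the founding Snail factor and a gene that TGF-β induces in many cell types, was higher in both treatments. In serum-free medium its libraries ran from 4.43 to 20.7 CPM with a median of 13.0, under TGF-β1 from 24.3 to 54.6 (median 38.5) and under FBS from 27.6 to 72.6 (median 42.9). Every treated library lay above every serum-free library, as in 17.3% of all genes for TGF-β1 and 27.2% for FBS. The log2 fold change was 1.63 under TGF-β1 (SE 0.31, edgeR adjusted p = 5.70e-05), a 3.10-fold rise, and 1.90 under FBS (SE 0.31, edgeR adjusted p = 4.18e-06), a 3.73-fold rise. Between the treatments it did not pass (-0.27 for TGF-β1 against FBS, 95% interval -0.89 to 0.35), with -0.14 in replicates 1 to 4 and -0.34 in replicates 5 to 8, where it passed (edgeR adjusted p = 0.0173). Without FBS replicates 5 and 6 it was 0.012. Within each condition the libraries split by set. Serum-free replicates 1 to 4 averaged 6.51 ± 2.28 CPM and replicates 5 to 8 averaged 18.5 ± 1.81 (n = 4 each), and the treated sets averaged 27.1 and 50.6 CPM under TGF-β1 and 29.9 and 63.6 CPM under FBS. The rise held within both sets, at 2.07 and 1.45 for TGF-β1 and at 2.21 and 1.79 for FBS. By the table's own coordinates (the sources used here name no build) SNAI1 lies on the unplaced scaffold chrUn0242 at 12899 to 17442 on the minus strand. A second row, listed by gene number and described as similar to SNAI1, held 1 count in all 24 libraries.

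SNAI2, the second Snail factor and a known regulator of neural crest migration and wound closure in epithelium, rose under TGF-β1 and gave opposite answers in the sets under FBS. Its serum-free libraries lay close together, from 25.2 to 35.1 CPM with a median of 28.6. Under TGF-β1 they ran from 42.2 to 90.3 CPM (median 60.3), all above serum-free, and under FBS from 18.7 to 53.5 CPM (median 36.5), on both sides of it. The log2 fold change under TGF-β1 was 1.10 (SE 0.22, edgeR adjusted p = 1.20e-04), 1.53 in replicates 1 to 4 and 0.52 in replicates 5 to 8, and the set-by-condition term passed (-1.01, edgeR adjusted p = 4.59e-05). Under FBS the pooled change was 0.26 (SE 0.22, edgeR adjusted p = 0.286). It was 0.76 in replicates 1 to 4 (edgeR adjusted p = 4.31e-07) and -0.46 in replicates 5 to 8 (edgeR adjusted p = 0.0024), and the term for their difference passed (-1.23, edgeR adjusted p = 2.04e-06). Without FBS replicates 5 and 6 the pooled change was 0.48 and passed (edgeR adjusted p = 0.0317), and with total library size as the only scaling it was 0.51 and passed (edgeR adjusted p = 0.0368). TGF-β1 exceeded FBS by 0.84 (SE 0.22, edgeR adjusted p = 0.00138), with 0.77 and 0.99 in the sets. That call was lost with total library size only (0.43, edgeR adjusted p = 0.0794). SNAI2 lies on chromosome 3 at 63432558 to 63436288 on the minus strand.

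ZEB1, a repressor of E-cadherin that also restrains cell polarity genes, fell in both treatments and further under FBS. Its libraries lay between 67.0 and 109 CPM in serum-free medium (median 90.4), from 49.7 to 71.0 under TGF-β1 (median 60.6) and from 18.7 to 50.9 under FBS (median 42.7). All FBS libraries lay under all serum-free libraries, as in 25.7% of all genes, while the TGF-β1 libraries overlapped with both other conditions. The log2 fold change was -0.54 under TGF-β1 (SE 0.16, edgeR adjusted p = 0.00429) and -1.19 under FBS (SE 0.16, edgeR adjusted p = 1.94e-07). TGF-β1 against FBS gave 0.65 (SE 0.16, edgeR adjusted p = 7.81e-04). The fall under TGF-β1 was -0.63 in replicates 1 to 4 and -0.43 in replicates 5 to 8, where it did not pass (edgeR adjusted p = 0.0831). It did not pass either with counts summed over neighbouring replicates (-0.51, edgeR adjusted p = 0.0736), and the difference between treatments was lost with total library size only (0.24, edgeR adjusted p = 0.169). The fall under FBS was -1.09 and -1.31 in the sets. FBS replicates 5 and 6 had the lowest levels, 18.7 and 22.6 CPM, against 40.5 and 41.8 CPM in replicates 7 and 8. ZEB1 lies on chromosome 16 at 3936583 to 4113695 on the minus strand.

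ZEB2, the relative of ZEB1 that binds the same elements and acts in neural crest and nerve sheath development, did not pass in any comparison over the 24 libraries. Its libraries lay between 61.8 and 105 CPM in serum-free medium, from 72.6 to 88.1 under TGF-β1 and from 49.2 to 98.2 under FBS, with medians of 83.3, 80.0 and 83.5 CPM. The 3 conditions overlapped throughout. The log2 fold changes were -0.05 under TGF-β1 (95% interval -0.33 to 0.23), -0.08 under FBS (-0.36 to 0.20) and 0.02 between the treatments (-0.25 to 0.30). Within replicates 1 to 4 alone ZEB2 fell under TGF-β1 (-0.26, edgeR adjusted p = 0.00405), while replicates 5 to 8 gave 0.20 (edgeR adjusted p = 0.269), and the term for the difference of the sets did not pass (edgeR adjusted p = 0.104). TGF-β1 against FBS was -0.17 in replicates 1 to 4, which passed (edgeR adjusted p = 0.0376), and 0.26 in replicates 5 to 8 (edgeR adjusted p = 0.153). It was -0.38 and passed with total library size only (edgeR adjusted p = 0.0106), the scaling that moved the median of all genes to -0.39 in that comparison. ZEB2 lies on chromosome 7 at 82838587 to 82969820 on the minus strand.

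TWIST2, a helix-loop-helix factor of dermal and skeletal mesenchyme also known as Dermo1, rose under FBS. Serum-free libraries ran from 6.95 to 16.7 CPM (median 11.8), TGF-β1 libraries from 13.5 to 16.6 (median 14.9) and FBS libraries from 14.4 to 33.6 (median 23.9). The highest values were the 4 FBS libraries of replicates 5 to 8, all at 30.2 CPM or more, while FBS replicates 1 to 4 overlapped with the other conditions. The log2 fold change under FBS was 0.99 (SE 0.19, edgeR adjusted p = 2.71e-05), with 0.74 and 1.15 in the sets. Under TGF-β1 it was 0.33 (SE 0.19, edgeR adjusted p = 0.13). That comparison passed with the replicate number as a block (0.39, edgeR adjusted p = 0.0258), with the set as a covariate (0.38, edgeR adjusted p = 0.0157), with only the 16 libraries compared (0.32, edgeR adjusted p = 0.0484) and in replicates 1 to 4 (0.68, edgeR adjusted p = 2.05e-04). In replicates 5 to 8 it was 0.04. TGF-β1 against FBS gave -0.67 (SE 0.19, edgeR adjusted p = 0.00229), with -1.10 in replicates 5 to 8 and -0.07 in replicates 1 to 4 (edgeR adjusted p = 0.648). The set-by-condition term passed (-1.04, edgeR adjusted p = 7.15e-05). TWIST2 lies on the unplaced scaffold chrUn0318 at 292617 to 293277.

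PRRX1, a homeodomain factor that marks stromal fibroblasts in many organs, did not pass in any comparison. Its libraries lay between 111 and 193 CPM in serum-free medium (median 159), from 118 to 176 under TGF-β1 (median 148) and from 106 to 195 under FBS (median 175). The conditions overlapped throughout. The log2 fold changes were -0.05 under TGF-β1 (95% interval -0.31 to 0.21), 0.06 under FBS (-0.20 to 0.32) and -0.11 between the treatments (-0.37 to 0.15). The change under TGF-β1 was -0.04 in replicates 1 to 4 and -0.06 in replicates 5 to 8, and the change under FBS 0.11 and 0.02. With total library size only, PRRX1 passed under FBS (0.33, edgeR adjusted p = 0.0157) and between the treatments (-0.52, edgeR adjusted p = 4.21e-04), where the medians of all genes moved to 0.21 and -0.39. Without FBS replicates 5 and 6 the difference between the treatments was -0.26 and passed (edgeR adjusted p = 0.0326). PRRX1 lies on chromosome 13 at 22830035 to 22910984 on the plus strand.

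PRRX2, the close relative of PRRX1, known from fetal skin and wound mesenchyme, had the largest rise of the genes with counts in all conditions. In serum-free medium its libraries ran from 16 to 49.2 CPM (median 33.7), under TGF-β1 from 142 to 213 (median 187) and under FBS from 93.2 to 306 (median 141). Every treated library lay above every serum-free library. The log2 fold change was 2.46 under TGF-β1 (SE 0.25, edgeR adjusted p = 3.27e-09), a 5.49-fold rise, and 2.30 under FBS (SE 0.25, edgeR adjusted p = 4.16e-09), a 4.92-fold rise. A change of that size or more was seen in 6.76% of all genes under TGF-β1 and in 15.9% under FBS. Within the sets the rise was 2.87 and 2.20 under TGF-β1, with a set-by-condition term of -0.67 (edgeR adjusted p = 0.0305), and 2.17 and 2.37 under FBS. Between the treatments it did not pass (0.16, 95% interval -0.33 to 0.65). There the sets differed (-0.86, edgeR adjusted p = 0.00207), under TGF-β1 above FBS in replicates 1 to 4 (0.69, edgeR adjusted p = 3.47e-05) and -0.17 in replicates 5 to 8 (edgeR adjusted p = 0.284). Without FBS replicates 5 and 6, which had the highest levels of all at 306 and 250 CPM, TGF-β1 exceeded FBS by 0.51 (edgeR adjusted p = 0.0331). PRRX2 lies on the unplaced scaffold chrUn0235 at 374290 to 376587.

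TCF21, a helix-loop-helix factor of the mesenchyme around developing epithelium and of fibroblast progenitors, had counts under FBS and next to none elsewhere. It had 340 counts over the 8 FBS libraries, 1 count over the 8 TGF-β1 libraries and 0 over the 8 serum-free libraries, and it passed the filter on low counts through the FBS group alone. FBS libraries ran from 1.42 to 2.46 CPM with a median of 1.87. A count of 0 over the group allows up to 0.0202 CPM in serum-free medium (3 counts over the group), and against that limit the FBS level was at least 96.1-fold higher, while the exact 95% counting interval of the ratio begins at 77.7. No p is given, since the gene was tested only because of its FBS counts. Against the single count under TGF-β1 it was 242-fold higher, with a 95% interval of 43.2 to 9600 that covers counting error only. TGF-β1 and serum-free medium were both at or under that limit and no fold is given. The FBS sets averaged 2.23 ± 0.308 and 1.59 ± 0.236 CPM (n = 4 each), so counts were present in both. TCF21 lies on chromosome 12 at 124319857 to 124322946 on the plus strand.

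**Figure D2:**
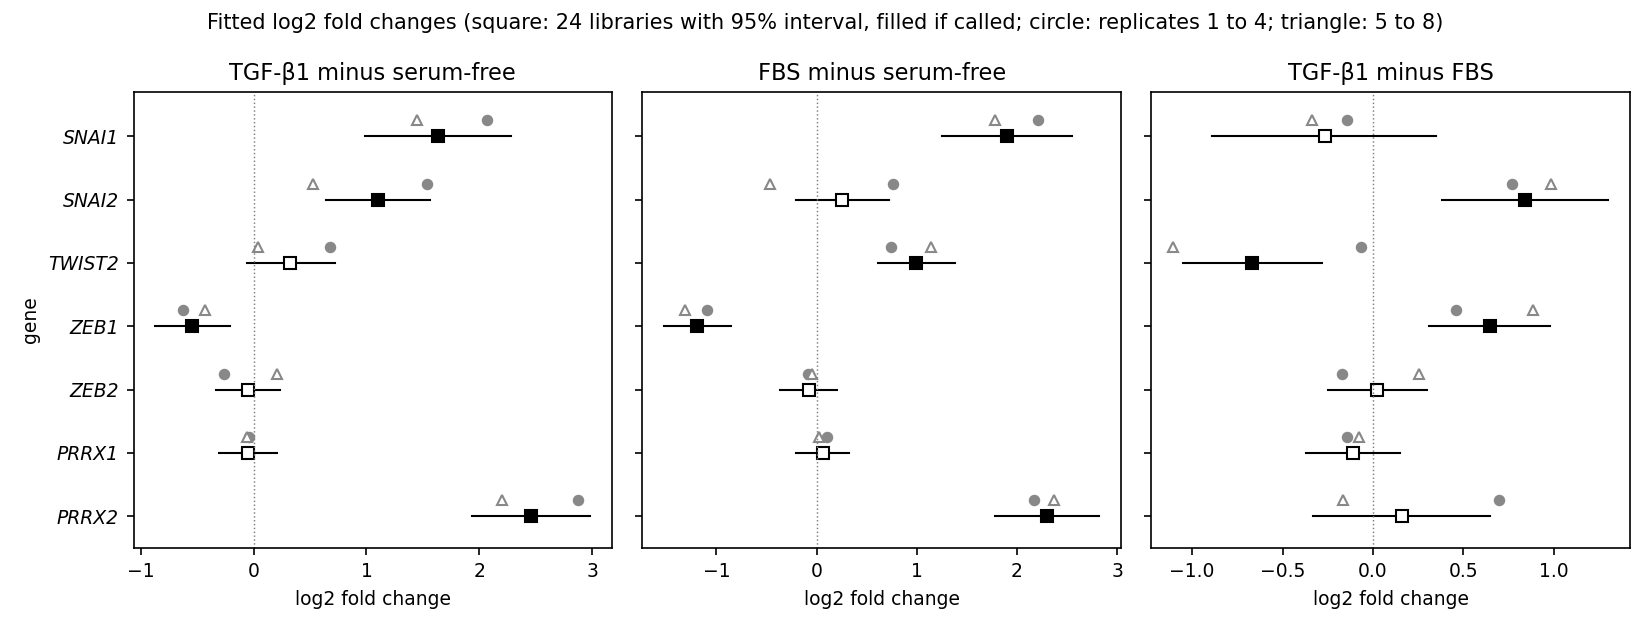
Fitted log2 fold changes (x axis) of the 7 genes with counts in every condition (y axis) in the 3 comparisons; squares are the fit to 24 libraries with 95% intervals, filled where the edgeR adjusted p is under 0.05, and grey circles and triangles are fits to replicates 1 to 4 and 5 to 8. PRRX2 and SNAI1 lie to the right in both comparisons with serum-free medium, ZEB1 to the left, and the sets fall on opposite sides of 0 for SNAI2 under FBS.

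The difference between the sets of replicates was itself not the same from gene to gene. SNAI1 was higher in replicates 5 to 8 in all 3 conditions, by 1.52 on the log2 scale in serum-free medium, 0.90 under TGF-β1 and 1.09 under FBS, and each passed (edgeR adjusted p = 7.92e-08, 4.67e-05 and 1.54e-06). PRRX2 was higher there by 0.98 in serum-free medium and 1.18 under FBS, and was 0.31 under TGF-β1 without passing (edgeR adjusted p = 0.09). TWIST2 was higher by 0.61 and 1.01 in the same pair of conditions and gave -0.03 under TGF-β1. SNAI2 went the other way in the treated libraries alone, by -0.94 under TGF-β1 and -1.16 under FBS, against 0.07 in serum-free medium. ZEB2 was lower in replicates 5 to 8 in serum-free medium (-0.51) and under FBS (-0.48), and ZEB1 (-0.62) and PRRX1 (-0.39) under FBS. Gene length moved with the sets over the whole table. Genes with a listed length under 1500 bases had median set differences of 0.22, 0.08 and 0.33 in serum-free medium, under TGF-β1 and under FBS. SNAI1, PRRX2, TWIST2 and TCF21 are of that length, but TCF21 gave -0.485 under FBS and did not pass. Genes of 1500 to 3000 bases had medians of 0.06, 0 and 0.08. SNAI2, ZEB1 and PRRX1 are of that length, and each was lower in replicates 5 to 8 under FBS. Genes over 3000 bases, as of ZEB2, had medians of -0.12, -0.07 and -0.23. SNAI1, PRRX2 and TWIST2 are also the genes of the group on unplaced scaffolds. The part of length or of the assembly in these differences was not tested.

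**Figure D3:**
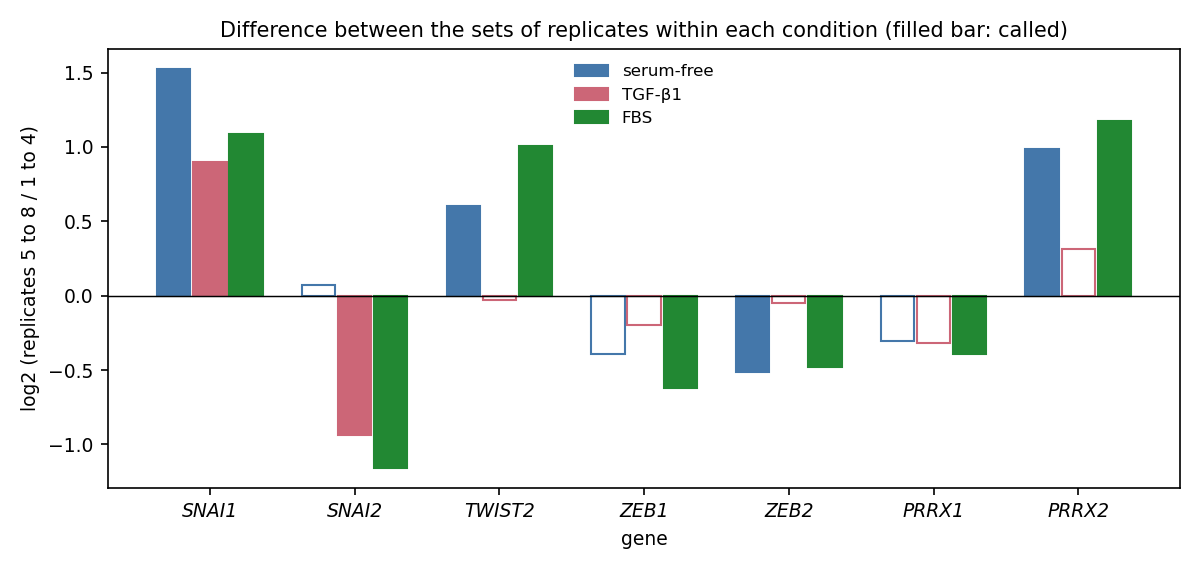
Log2 difference of replicates 5 to 8 against replicates 1 to 4 (y axis) within each condition for 7 genes (x axis); bars are filled where the edgeR adjusted p is under 0.05. SNAI1, PRRX2 and TWIST2 point mostly up, SNAI2 points down in the treated libraries only, and ZEB1, ZEB2 and PRRX1 point down.

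A ratio of related genes within a library does not depend on the scaling of that library. The 3 pairs present were therefore compared in this way, each as a ratio of counts with no correction for length. These comparisons were added after the values had been seen, so their p-values describe the separation of these libraries and are no independent support. The ratio of ZEB1 to ZEB2 lay between 0.874 and 1.20 in serum-free medium, from 0.685 to 0.856 under TGF-β1 and from 0.380 to 0.537 under FBS, with no overlap between any of the conditions. Its log2 means were 0.12 ± 0.14, -0.39 ± 0.10 and -1.04 ± 0.16 (SD, n = 8), and each difference had an adjusted p of 2.80e-04 in a two-sided exact permutation test over libraries, adjusted over 9 tests (unadjusted p = 1.55e-04, the smallest it can give). The differences also held within either set of 4 (-0.37 and -0.63 under TGF-β1, -1.003 and -1.303 under FBS), where 0.0286 is the smallest exact permutation p and each reached it. ZEB1 thus fell relative to ZEB2 whatever the scaling, in the order serum-free medium, TGF-β1, FBS.

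The ratio of PRRX1 to PRRX2 lay between 2.26 and 9.12 in serum-free medium, from 0.558 to 1.07 under TGF-β1 and from 0.347 to 1.91 under FBS. Each treatment lay under serum-free medium without overlap, with log2 differences of -2.58 and -2.21 (exact permutation test, adjusted p = 2.80e-04 for both), and within the sets by -2.92 and -2.25 and by -2.09 and -2.33. The treatments did not differ past the threshold (-0.38, exact permutation test, adjusted p = 0.311), with -0.84 in replicates 1 to 4 and 0.09 in replicates 5 to 8. The ratio of SNAI1 to SNAI2 lay between 0.129 and 0.689 in serum-free medium, from 0.279 to 1.28 under TGF-β1 and from 0.566 to 3.84 under FBS. FBS exceeded serum-free medium by 1.87 on the log2 scale (exact permutation test, adjusted p = 0.00839), 1.49 and 2.25 in the sets. TGF-β1 exceeded it by 0.74 (exact permutation test, adjusted p = 0.159) with 0.57 in replicates 1 to 4 (exact permutation p = 0.2) and 0.92 in replicates 5 to 8 (exact permutation p = 0.0286), and gave -1.13 against FBS (exact permutation test, adjusted p = 0.0863). With same-numbered libraries paired, both passed in an exact sign-flip permutation test adjusted over the 9 ratio tests: TGF-β1 exceeded serum-free medium in 7 of 8 pairs (adjusted p = 0.0263) and lay under FBS in 8 of 8 pairs (adjusted p = 0.01). No label says that the numbers mark pairs. Within each set TGF-β1 and FBS did not overlap in this ratio (-0.92 and -1.33, exact permutation p = 0.0286 for both).

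**Figure D4:**
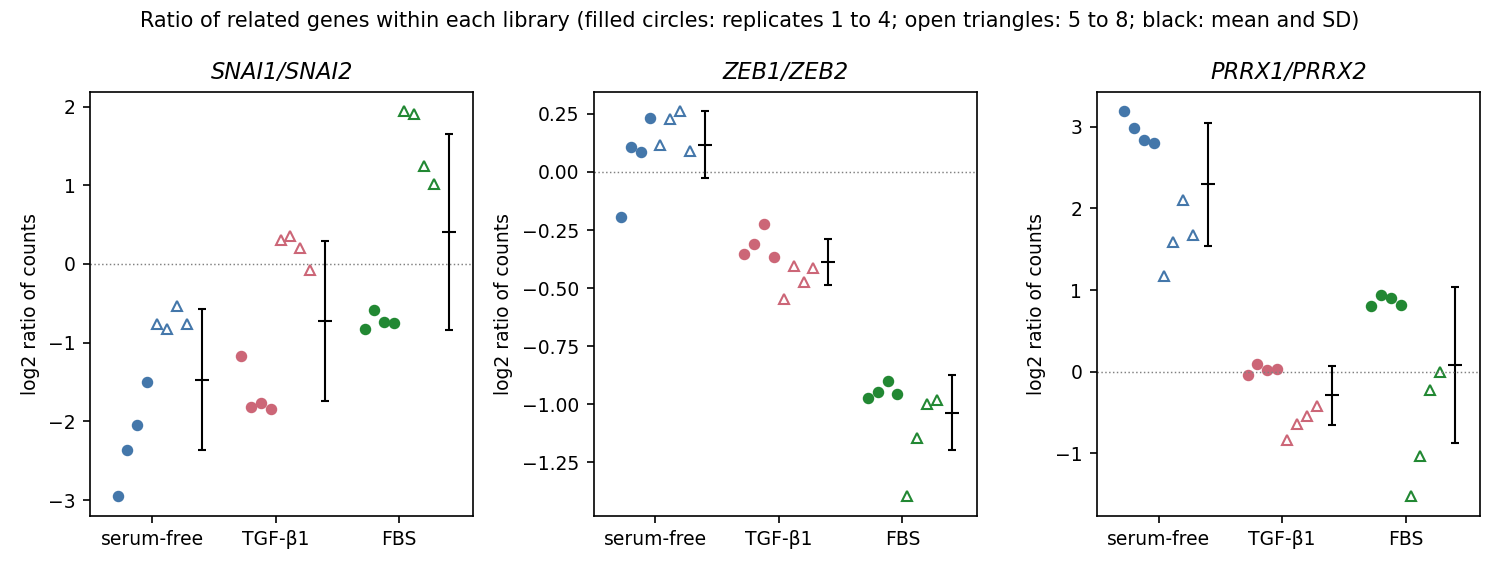
Log2 ratio of the counts of related genes (y axis) in each of the 24 libraries by condition (x axis); filled circles are replicates 1 to 4, open triangles replicates 5 to 8, and black bars the mean and SD. ZEB1 to ZEB2 falls in 3 separate steps, PRRX1 to PRRX2 is at least 2.26 as a plain ratio in every serum-free library and at most 1.91 in every treated one, and SNAI1 to SNAI2 splits by set in each condition.

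Genes whose profile over the 24 libraries was nearest to each factor were found by the root mean square difference of log2 CPM, centred per gene. For ZEB1 they were BPTF (0.125), ZNF106 (0.144) and HIPK1 (0.148), where ZEB1 itself varied with an SD of 0.611. SNAI1 (SD 1.10) was nearest to CEBPB (0.242), a leucine zipper factor, which averaged 63.3 CPM in serum-free medium, 186 under TGF-β1 and 199 under FBS. ENO3 (0.341) and TOR3A (0.347) came next. PRRX2 (SD 1.24) was nearest to ARPC1B (0.259), a subunit of the Arp2/3 complex that nucleates actin branches, at 51.6, 355 and 321 CPM, followed by SPHK1 (0.311) and EML6 (0.330). SNAI2 (SD 0.643) was nearest to KLF7 (0.256), GDNF (0.263) and SMURF2 (0.290), a ubiquitin ligase of the TGF-β pathway. TWIST2 (SD 0.538) was nearest to GAPDH (0.241), RNF130 (0.249) and DHRS11 (0.263). ZEB2 (SD 0.273) was nearest to PRKD3 (0.106), STAG1 (0.112) and TMX4 (0.115), and PRRX1 (SD 0.252) to ARID5B (0.129), G3BP2 (0.146) and RPS6KB1 (0.146). TCF21 (SD 1.98) was nearest to MCM6 (0.308), a subunit of the replicative helicase, at 13.3, 13.1 and 266 CPM, then APITD1 (0.389) and FIGNL1 (0.394). As TCF21 had next to no counts outside FBS, its SD and its nearest genes depend on the prior count of 2 used for log2 CPM. Conditions and sets shape all of these profiles, and the likeness is a description.

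Helix-loop-helix factors act as dimers with partners that other helix-loop-helix proteins can take away. Of 7 such partner and inhibitor genes, 5 were tested, and in both comparisons with serum-free medium 3 rose and 2 fell (median log2 fold change 1.30 under TGF-β1 and 4.35 under FBS). Of all genes tested, 64.3% were called under TGF-β1 and 80.0% under FBS. TCF4, an E protein that pairs with TWIST factors, fell from 250 ± 41.2 CPM to 169 ± 19.4 under TGF-β1 and 94.0 ± 27.1 under FBS (log2 fold changes -0.57 and -1.41). ID1, ID2 and ID3, whose products bind E proteins and keep them from DNA, rose in both, and ID4 was too low to test. ID1 went from 19.9 CPM to 49.0 under TGF-β1 and 404 under FBS, ID2 from 0.318 to 6.35 and 80.8, and ID3 from 4.67 to 102 and 290.

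Of 20 other factors often linked to mesenchymal transition, 8 were tested. Under TGF-β1 5 rose, 1 fell and 2 did not pass (median 0.92), beside 64.3% of all genes called. Under FBS 4 rose, 3 fell and 1 did not pass (median 0.53), beside 80.0% of all genes. ETS1, a founding ETS factor, rose in both (3.69 and 3.23), as did the homeobox gene MSX2 (2.29 and 2.36). SOX9, a cartilage and neural crest factor, rose from 11.8 CPM to 117 under TGF-β1 and 27.1 under FBS (3.30 and 1.20). HMGA2, a chromatin protein that takes part in SNAI1 induction, went from 0.410 CPM to 38.7 under FBS (6.48), against 0.742 under TGF-β1 (0.80, edgeR adjusted p = 0.217). TBX2, a T-box repressor, fell in both (-1.78 and -2.05). Among 18 mesenchymal progenitor factors related to the genes above, 7 were tested, of which 1 rose and 6 fell under TGF-β1 and 3 rose and 4 fell under FBS. These counts stand beside the same 64.3% and 80.0% of all genes called. SHOX2, a homeodomain relative of the PRRX factors, fell from 155 CPM to 58.7 and 45.6 (-1.40 and -1.77). HIC1, a repressor of mesenchymal progenitors, rose from 0.784 to 9.66 and 4.02 CPM (3.63 and 2.36), and MEOX2 fell (-4.32 and -2.54).

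Epithelial genes known as targets of repression by SNAI, ZEB and TWIST factors were for the most part too low to test: of 30 listed, 28 are in the table and 9 had enough counts. CDH1 averaged 0.0980, 0.0908 and 0.0331 CPM in serum-free medium, under TGF-β1 and under FBS. Of the 9 tested, 2 rose and 4 fell under TGF-β1 (median -0.10), beside 64.3% of all genes called. Under FBS 3 rose and 3 fell (median 0.14), beside 80.0% of all genes. JUP, the junction protein plakoglobin, fell from 255 to 51.2 and 21.3 CPM (-2.31 and -3.58), and the desmosome gene DSP fell in both as well (-1.51 and -3.44). CLDN1, a tight junction claudin, rose from 5.54 CPM to 26.4 under TGF-β1 and 21.6 under FBS (2.25 and 1.96). KRT19, listed by gene number, averaged 0.0190 CPM in serum-free medium, 1.76 under TGF-β1 and 8.06 under FBS.

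Of 25 mesenchymal genes of the transition, 24 were tested. Under TGF-β1 16 rose and 4 fell (median 0.84), beside 64.3% of all genes called. Under FBS 9 rose and 14 fell (median -0.42), beside 80.0% of all genes, and 15 were higher and 7 lower under TGF-β1 than under FBS, beside 73.3%. POSTN, the matrix protein periostin, rose under TGF-β1 from 24.8 to 2460 CPM (6.63) and under FBS to 50.1 CPM (1.02). The cadherin gene CDH2 (1.17 and 3.64) and tenascin gene TNC (1.72 and 3.77) rose under TGF-β1 and, further, under FBS. COL1A2, a chain of type I collagen, fell under FBS (-4.12) and did not pass under TGF-β1 (-0.33).

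Markers of other cell types were measured beside these results. Of 12 corneal epithelial markers in the table, KRT12 and KRT24 were at 0 in all libraries, and the summed level of the list was 0.707 to 1.53 CPM in serum-free medium, 0.876 to 3.34 under TGF-β1 and 4.63 to 7.00 under FBS, of which TP63 averaged 0.327, 1.25 and 4.49. The 8 leukocyte markers summed to 14.6 to 44.6, 33.1 to 50.2 and 71.5 to 79.0 CPM, most of it LCP1 and CD68, which rose in both treatments. For LCP1 the rise under TGF-β1 was 0.56 (edgeR adjusted p = 0.0357), with overlapping libraries. With total library size only, 1 leukocyte marker passed there in place of 2. CORO1A averaged 0.174, 0.166 and 5.18 CPM and rose under FBS (4.92, edgeR adjusted p = 5.02e-09). CSF1R did not pass in either, and PTPRC, too low to test, averaged 0.147, 0.0288 and 0.0972 CPM. The 8 glial, Schwann and melanocyte markers, cells in which ZEB2 is also active, summed to 20.5 to 35.2, 10.6 to 24.2 and 11.8 to 16.1 CPM, where SOX10 (4.11, 0.970 and 0.546) fell in both treatments and MITF (5.72, 9.18 and 9.99) rose in both. The 7 vascular and mural markers summed to 251 to 370, 54.0 to 117 and 19.5 to 27.6 CPM, most of it KDR. KDR, CDH5 (13.1, 6.09 and 1.93 CPM) and VWF (0.929, 0.270 and 0.0482) fell in both treatments, and PECAM1, too low to test, was at 0.0652, 0.283 and 0.679. NOTCH3 (3.99, 3.33 and 6.89 CPM) did not pass under TGF-β1 and rose under FBS. Of 9 corneal endothelial markers, several of which the stroma also expresses, the sums were 1623 to 2002, 2759 to 3616 and 634 to 783 CPM. Of these sums COL8A2 averaged 1008, 2586 and 294, and ZP4 was at 0 in all libraries. The sums do not stand for each marker. Of the 8 tested, 3 rose and 4 fell under TGF-β1, beside 64.3% of all genes called. Under FBS 3 rose and 3 fell, beside 80.0% of all genes. The 3 that rose under FBS were SLC4A11 (log2 fold change 2.2), CDH2 (3.64) and ALCAM (0.44), while COL8A2 fell (-1.78). SLC4A11 fell under TGF-β1 (-0.86), where COL8A2 rose (1.36). The part of other cells in the levels of the transition factors was not tested.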

How the data were processed

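The members and gene lists were chosen with earlier results of these data known. RNA was extracted with a column kit and libraries were made by a sequencing company, per the labels' protocols. Sources used here name no aligner, counter, genome build, annotation or strand setting. The authors deposited 1 table of whole-number counts and FPKM per gene for all 24 libraries. In every library the deposited FPKM equalled the count over the listed length times 1 constant (to a relative tolerance of 1e-06, checked on genes with over 20 counts), and the library size this implies was 0.99 to 1.02 times the TMM effective size. The counts were tested with edgeR 4.0.16 in R 4.3.3: filterByExpr by condition, TMM scaling, 1 coefficient per condition over all 24 libraries, the quasi-likelihood F-test, and Benjamini-Hochberg adjustment over 13308 genes, with a call at an adjusted p under 0.05. SEs and 95% intervals were derived from the F statistic. Set-by-condition terms came from a second edgeR fit with the condition split by set. CPM uses TMM effective sizes; similar profiles use log2 CPM with a prior count of 2. The script was tested on simulated data. Alternatives used DESeq2 1.42.0 and limma 3.58.1, the latter on log2(FPKM + 1) and log2(FPKM + 0.1). The ratios within a library, their paired test and the counts without TCF21 were added after the values had been seen.

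Named were all members and, per list and comparison, up to 4 called genes with the largest absolute change and up to 2 uncalled genes with the highest mean CPM, the 3 nearest profiles per member, and label checks; other genes given as levels (CDH1, PTPRC, PECAM1 and markers at 0) were chosen after their values were seen. One gene the rule names is not reported here. The 15 lists hold 213 genes, of which 196 are in the table, 6 found by gene number. The deviations of same-numbered libraries from their condition means correlated at 0.177 to 0.362 for TGF-β1 with serum-free medium. The range was 0.115 to 0.429 for FBS with serum-free medium and 0.103 to 0.332 for TGF-β1 with FBS. Each time 8 of 8 pairs were over 0.1. Libraries with different numbers were not compared, and the split between the sets was not removed first. This check therefore cannot show whether the numbers pair the libraries. No 2 libraries agreed within sampling noise. Depth is the total count per library; intervals and limits on a count of 0 cover counting error only.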

Additional observations from a re-analysis of the deposited data

Results flagged for a closer look

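The effect of a condition differed between replicates 1 to 4 and replicates 5 to 8, by the set-by-condition term of the edgeR fit, for 3 genes with TGF-β1 against serum-free medium: SNAI2 (-1.01, edgeR adjusted p = 4.59e-05), TWIST2 (-0.637, edgeR adjusted p = 0.0175) and PRRX2 (-0.671, edgeR adjusted p = 0.0305). This term passed in 10.3% of all genes in that comparison. With FBS against serum-free medium it passed for SNAI2 (-1.229, edgeR adjusted p = 2.04e-06), beside 22.4% of all genes. Between TGF-β1 and FBS it passed for TWIST2 (-1.036, edgeR adjusted p = 7.15e-05) and PRRX2 (-0.862, edgeR adjusted p = 0.00207), beside 23.9% of all genes.

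TCF21 in TGF-β1 replicate 1 stood apart from the other 7 TGF-β1 libraries, at 0.06505 CPM against 0, and this value is a single count. Chance flags about 1 group in 20 by the distance rule used for single libraries.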

How the results depend on the processing

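With TCF21 counted, the number of members called was 3 to 6 with TGF-β1 against serum-free medium, 5 to 7 with FBS against serum-free medium and 4 to 6 between the treatments over all alternatives, beside 7148 to 9693, 10245 to 12718 and 8797 to 10743 of all genes. It was 4, 5 and 4 whichever library was left out. TCF21 was called in both comparisons with FBS throughout, and these calls are no support, since it was tested only because of its FBS counts. Without TCF21 the main fit called 3 higher and 1 lower under either treatment against serum-free medium. Between the treatments it called 2 higher and 1 lower. SNAI1 and PRRX2 kept their rise, and ZEB1 its fall with FBS, in all 37 alternatives of each. With the replicate block 5, 5 and 4 members and 9385, 11104 and 10311 genes were called; TWIST2 with TGF-β1 passed (0.385, edgeR adjusted p = 0.0258), and the block changed no other member's call. Pairing by replicate number also brought the ratio of SNAI1 to SNAI2 past the threshold with TGF-β1 against serum-free medium (0.745) and between the treatments (-1.126), and changed no other call among the 9 ratio tests.

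Total library size as the only scaling shifted the median of all genes to -0.17, 0.21 and -0.39 in the 3 comparisons, and the split of higher against lower calls to 3215 against 5368, 6219 against 4450 and 3131 against 6819, from 4155 against 4408, 5257 against 5386 and 4917 against 4840. Under it the members called between the treatments were 0 higher and 4 lower, in place of 2 and 2, with TCF21 among the lower both times. ZEB2 turned to 0.191 with FBS and to -0.379 between the treatments, and PRRX2 to -0.23 between the treatments. In replicates 5 to 8 alone ZEB2 turned to 0.204 with TGF-β1, SNAI2 to -0.464 with FBS, PRRX2 to -0.168 between the treatments and the log2 ratio of PRRX1 to PRRX2 to 0.085. In replicates 1 to 4 alone, ZEB2 turned to -0.172 between the treatments and passed (edgeR adjusted p = 0.0376). Without FBS replicates 5 and 6 ZEB2 turned to 0.105 with FBS and -0.15 between the treatments, and SNAI1 to 0.012 between the treatments. With no filter on low counts ZEB2 was -0.012 between the treatments. Leaving out 1 library at a time moved ZEB2 from -0.101 to 0.005, from -0.123 to 0.005 and from -0.054 to 0.073 in the 3 comparisons. The cause of these changes was not tested. The fitted change of TCF21 with FBS ran from 1.40 to 9.20, since it depends on the prior count or pseudocount added to libraries at 0.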

Other observations

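Corepressors and chromatin partners of the SNAI and ZEB proteins were tested as a list of 16 genes. With TGF-β1 against serum-free medium 7 rose, 7 fell and 2 did not pass (median log2 fold change -0.02), beside 64.3% of all genes called. With FBS 9 rose, 3 fell and 4 did not pass (median 0.57), beside 80.0% of all genes. LOXL2, a lysyl oxidase that binds SNAI1, rose with TGF-β1 (2.05) and was -0.08 with FBS (edgeR adjusted p = 0.539). The LIM proteins WTIP (1.95 and 0.96) and AJUBA (1.12 and 0.67) rose with TGF-β1 and with FBS. EZH2, the methyltransferase of the Polycomb complex, was 0.10 with TGF-β1 (edgeR adjusted p = 0.67) and rose with FBS (4.64), as did the methyltransferases SUV39H1 (2.86) and DNMT1 (1.86).

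Regulators of the stability of these proteins were tested as a list of 19 genes, of which 7 rose and 5 fell with TGF-β1 (median 0.20) and 9 rose and 8 fell with FBS (median 0.23). The shares of all genes called were 64.3% and 80.0%. GSK3B, the kinase that marks SNAI1 for breakdown, rose with TGF-β1 (0.85) and was 0.23 with FBS (edgeR adjusted p = 0.0857). BTRC, the ubiquitin ligase subunit that reads that mark, fell in both (-0.81 and -1.60), and the ligase subunit FBXO45 rose with FBS (1.86). Of 14 epithelial transcription factors, 3 were tested. TP63 rose in both treatments (1.92 and 3.76), KLF4 rose with TGF-β1 (1.45) and fell with FBS (-0.49), and KLF5 fell with TGF-β1 (-0.61) and rose with FBS (2.39).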
